A study of Caenorhabditis elegans with 8 samples.

Results

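The response of wild-type *Caenorhabditis elegans* to an organic peroxide was measured in 4 of the 8 RNA-seq libraries of the series: 2 libraries of tBOOH-treated N2 worms, numbered 1 and 3 in the labels, and 2 libraries of untreated N2 worms with the same numbers. Worms of the wild-type strain N2 grew on *E. coli* OP50 to L4, the last larval stage, and the treated ones then spent 4 hr on 7.5 mM tBOOH (*tert*-butyl hydroperoxide), while the untreated ones were left without it. The other 4 libraries come from *nhr-49*(*nr2041*) mutants, which lack a working nuclear hormone receptor NHR-49, in the same 2 states. All libraries were made from RNA of whole worms after removal of ribosomal RNA, so that fewer cells of a type and less RNA per cell cannot be told apart. The study calls the libraries of a group biological replicates, and the labels do not say how they were kept apart.

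tBOOH is a lipid-soluble peroxide that oxidizes thiols and membrane lipids and is used to mimic lipid peroxidation. In worms, peroxides and other electrophiles call up successive layers of detoxification enzymes. Cytochrome P450s and flavin-containing monooxygenases oxidize a foreign compound, glutathione S-transferases and UDP-glucuronosyltransferases then attach a soluble group, and ABC transporters export the product. Much of this takes place in the intestine, which is also the worm's main site of fat storage and lipid breakdown. L4 worms build the adult cuticle in their epidermis at the same time, with a program of collagens, apical matrix proteins and proteases that is switched on once per moult.

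The 2 tBOOH-treated libraries held 5852727 and 4802744 counts on genes, and the 2 untreated libraries 4758499 and 5468999. With 3 counts taken as the floor, which allows for counting error alone, the detection limit was 0.508 to 0.69 CPM, the counts scaled to a common library size, in these libraries. Of 42048 gene symbols, 14334 exceeded 1 CPM in at least 2 of the 8 libraries and were tested. log2 CPM of the replicates correlated across genes with r = 0.972 in treated and 0.976 in untreated worms, where genes are not independent replicates, and 1180 and 980 genes differed more than 2-fold between the replicates. Markers of the L4 germline and of adult worms were both present. The 28 tested major sperm protein genes summed to 1514 and 1395 CPM in treated and 2001 and 1288 CPM in untreated worms. The 6 vitellogenin (yolk protein) genes, which adult hermaphrodites express, summed to 85700.5 and 40580 CPM in treated and 51484 and 23569 CPM in untreated worms. The vitellogenin sum of replicate 3 was thus 0.474 times that of replicate 1 in treated and 0.458 times in untreated worms, and its treated and untreated libraries overlapped.

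In wild-type worms, genes were called in both directions with tBOOH. In the exact test of edgeR, 316 of 14334 genes were higher (percent called 2.2) and 450 were lower (percent called 3.14) at a Benjamini-Hochberg adjusted p under 0.05. More than 4-fold, 183 genes rose (1.28%) and 248 fell (1.73%). Which direction had more calls rested on 1 library, since without treated replicate 1 the same test called 125 genes higher and 80 lower. The libraries of the 2 groups did not overlap for any of the 766 called genes, as was also the case, without regard to a call, for 32.3% of all genes above and 27.5% below. The genes that fell had a median of 11.3 CPM in treated and 59.4 CPM in untreated worms. Those that rose had a median of 30.4 CPM in treated and 5.87 CPM in untreated worms. Genes were called on the difference between the groups, so the order of these medians comes in part from the choice of genes. The median log2 fold change (treated over untreated, as throughout) was 2.22 for genes called higher, -2.17 for genes called lower and 0.05 over all genes tested. 56 of the higher genes lay at or under the floor in both untreated libraries, and 28 of the lower genes in both treated libraries, and their folds are given as lower bounds against 3 counts per library.

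**Figure D1:**
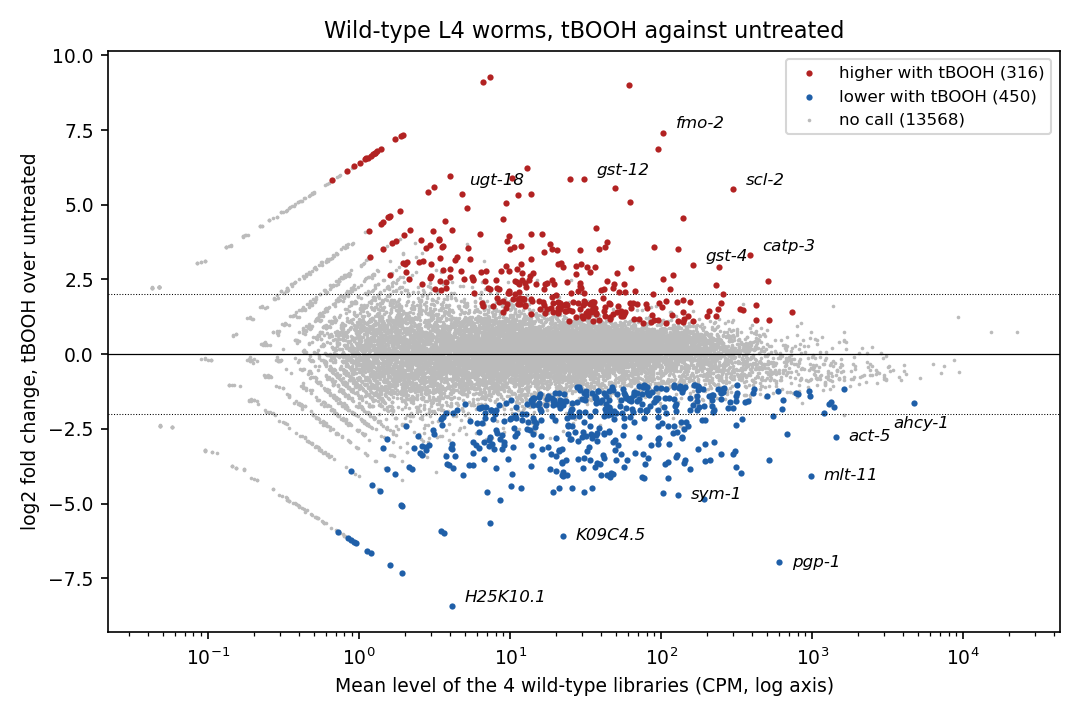
Each dot is 1 of the tested genes, with the mean level of the 4 wild-type libraries in CPM on a log axis and the log2 fold change of tBOOH-treated over untreated worms on the vertical axis; dotted lines mark a 4-fold change. The 450 lower genes reach further to the right, to the highly expressed *ahcy-1* and *act-5*, than the 316 higher genes.

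How many genes passed depended on the estimate of the spread. The dispersion was shared over all 8 libraries, with a common coefficient of variation of 36.2%. It was 22.98% over the 4 wild-type libraries and 46.3% over the 4 *nhr-49* libraries. With the dispersion of the 4 wild-type libraries, the same test called 1136 genes higher and 1181 lower. The quasi-likelihood test of edgeR called 103 genes higher (percent called 0.719) and 130 lower (percent called 0.907), all of them among the exact test's calls. Without 1 library, genes called higher numbered 125 without treated replicate 1, 126 without treated replicate 3, 89 without untreated replicate 1 and 54 without untreated replicate 3, and genes called lower 80 without treated replicate 1, 176 without treated replicate 3, 247 without untreated replicate 1 and 96 without untreated replicate 3. Of the 766 genes, 47 higher and 49 lower ones passed in each of these 4 fits, and 154 higher and 180 lower genes passed in none.

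Of the 10 called genes with the largest fitted inductions and at least 20 counts in both treated libraries, 3 were glutathione S-transferases (*gst-12*, *gst-30* and *gst-37*), and the others were *fmo-2*, *cyp-33B1*, *clec-74*, *dos-3*, *C50F7.5*, *F14F9.2* and *F14F9.3*. *fmo-2* (WBGene00001477, chromosome IV), a flavin-containing monooxygenase, had 272 and 138 CPM in treated and 1.84 and 0.575 CPM in untreated worms, a log2 fold change of 7.42 (SE 0.68 from DESeq2, as are all SEs; adjusted p = 5.69e-20). *scl-2* (WBGene00009895, chromosome IV), a secreted protein of the SCP/TAPS family, had 579 and 589.9 CPM in treated and 14.3 and 11.3 CPM in untreated worms, and *C50F7.5* (WBGene00016845, chromosome IV), of no known role, 181 and 198 CPM in treated and 2.07 and 1.15 CPM in untreated worms. In both genes the treated replicates lay close together and far above the untreated ones (log2 fold changes 5.51, SE 0.40, adjusted p = 6.45e-23, and 6.87, SE 0.75, adjusted p = 1.94e-10). Among called genes, the largest gain in CPM was that of *T28H10.3* on chromosome V, with 726 and 999 CPM in treated and 166 and 147 CPM in untreated worms. It was followed by *cpr-1* (WBGene00000781, chromosome V), a cathepsin B-like protease whose treated replicates differed more than 2-fold (1468 and 676 CPM, against 394 and 406 CPM untreated, adjusted p = 0.0417), and by *catp-3* (WBGene00015660, chromosome V), a cation-transporting ATPase, with 653 and 751 CPM in treated and 100.1 and 42.2 CPM in untreated worms. *fmo-2*, *scl-2*, *C50F7.5* and *catp-3* kept their calls without any 1 of the 4 libraries, *T28H10.3* in 3 of these 4 fits and *cpr-1* in 1.

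The lower genes included an abundant one that was nearly lost. *pgp-1* (WBGene00003995, chromosome IV), a P-glycoprotein of the ABC transporter family, had 14.7 and 4.36 CPM in treated and 1483 and 923 CPM in untreated worms, a log2 fold change of -6.97 (SE 0.52, adjusted p = 2.92e-18). *K09C4.5* (WBGene00019550, chromosome X) was at 0.846 and 0.379 CPM in treated and 44.2 and 43.7 CPM in untreated worms, and *R193.2* (WBGene00020128, chromosome X) at 21 and 4.55 CPM in treated and 342 and 399 CPM in untreated worms. Both are without a known role, and in both the untreated replicates lay close together (log2 fold changes -6.09, SE 0.75, adjusted p = 8.7e-15, and -4.85, SE 0.63, adjusted p = 3.88e-07). *lbp-8* (WBGene00002260, chromosome V), a lysosomal carrier of fatty acids, had 0.508 and 0 CPM in treated and 16.1 and 12.6 CPM in untreated worms and was thus at least 26.7-fold lower. *H25K10.1* (WBGene00010411, chromosome IV) had 0 counts in both treated libraries and 9.89 and 6.71 CPM in untreated worms, at least 15.4-fold lower. All 5 kept their calls without any 1 of the 4 libraries.

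Among called genes, the largest losses in CPM were those of *ahcy-1*, *act-5*, *mlt-11*, *Y39B6A.1* and *pdi-2*. *ahcy-1* (WBGene00019322, chromosome I), the S-adenosylhomocysteine hydrolase, had 2457 and 2154 CPM in treated and 6785 and 7428 CPM in untreated worms (log2 fold change -1.62, SE 0.36, adjusted p = 0.00531). *act-5* (WBGene00000067, chromosome III), the actin of intestinal microvilli, had 511 and 223 CPM in treated and 2616 and 2369 CPM in untreated worms (-2.76, SE 0.52, adjusted p = 0.000554). *mlt-11* (WBGene00012186, chromosome V), a protease inhibitor of the moult, had 80.2 and 141 CPM in treated and 849 and 2875 CPM in untreated worms. For these 3 genes the groups were well apart, although the untreated replicates of *mlt-11* differed more than 3-fold (-4.07, SE 0.63, adjusted p = 4.4e-05). *Y39B6A.1* (WBGene00012664, chromosome V) had 767 and 491 CPM in treated and 2084 and 2201 CPM in untreated worms, and *pdi-2* (WBGene00003963, chromosome X), a protein disulfide isomerase that also serves collagen hydroxylation, 487 and 496 CPM in treated and 1629.5 and 2194 CPM in untreated worms. The calls of *ahcy-1* and *Y39B6A.1* were lost in each of the 4 fits without 1 library, that of *pdi-2* in 3 of them, and those of *act-5* and *mlt-11* in 1.

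Grouped by function, the response had a small set of groups with many members called and a large set near the background of 2.2% higher and 3.14% lower. Among groups of at least 10 tested genes, autophagy (9 of 25 higher) and glutathione S-transferases (14 of 39 higher) had the greatest share of induced members. Cuticle furrow and shape collagens (14 of 22 lower) had the greatest share of lost members among the groups set at the start. 3 further groups, assembled after the values had been seen and marked as such in the plot, collect genes of the secretory pathway (13 of 23 lower), of one-carbon and polyamine metabolism (10 of 22 lower) and of amino acid breakdown (7 of 17 lower). They describe these data and are no independent evidence. The groups set at the start were also chosen with earlier results of these data known, and no group was tested. In all, 29.7% of the higher and 31.3% of the lower genes belonged to a group set at the start, and 50.9% of the higher and 41.8% of the lower genes were known by a sequence name only.

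**Figure D2:**
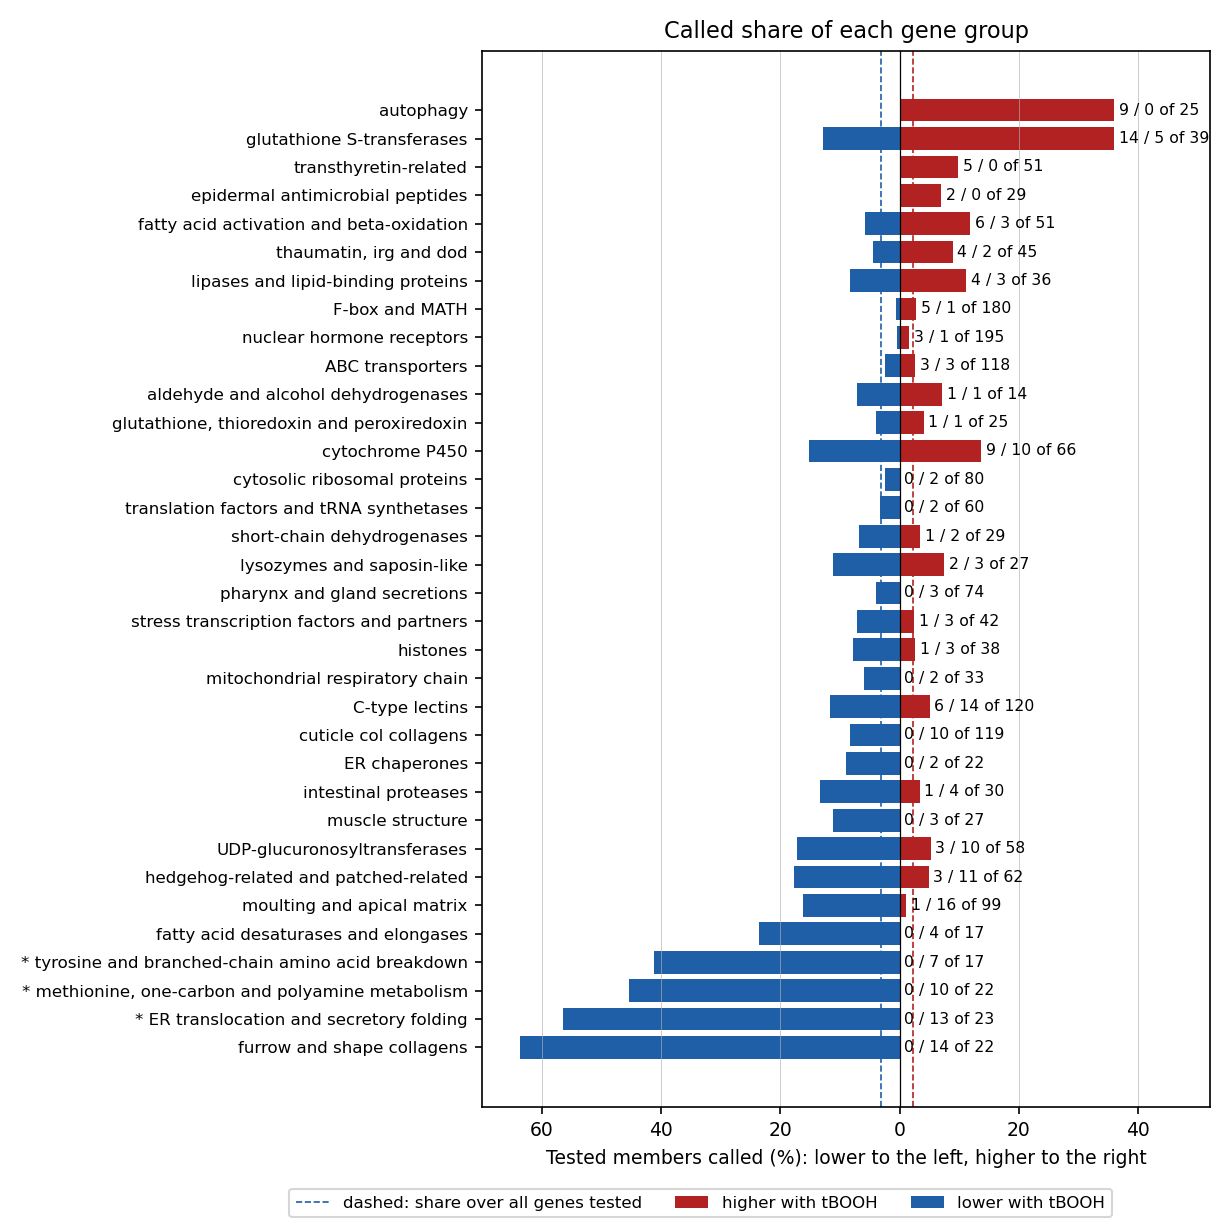
Bars give the percent of tested members called higher (to the right) and lower (to the left) with tBOOH in each gene group with at least 10 tested members and 2 calls; the numbers beside each bar are members called higher, called lower and tested, dashed lines mark the share over all genes, and asterisks mark groups assembled after the values were seen. Autophagy and glutathione S-transferases stand at the top with 9 and 14 higher members, and furrow and shape collagens at the bottom with 14 lower members.

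Glutathione S-transferases, which couple glutathione to electrophiles, had more induced members than the other detoxification families listed. Of 47 genes of the family 39 were tested, of which 14 rose and 5 fell, with a median log2 fold change of 1.13. *gst-12* (WBGene00001760, chromosome II) had 63.1 and 58.7 CPM in treated and 0.23 and 1.72 CPM in untreated worms (5.86, SE 0.65, adjusted p = 3.63e-17). *gst-4* (WBGene00001752, chromosome IV), the usual reporter gene for the transcription factor SKN-1, had 267 and 311 CPM in treated and 30.6 and 42 CPM in untreated worms (2.99, SE 0.52, adjusted p = 4.46e-05); its exons overlap those of *dhs-12* on the same strand. Several members were close to absent before treatment. *gst-30* (WBGene00001778, chromosome II) was at least 32-fold higher (24.5 and 15.9 CPM in treated and 0.23 and 0.383 CPM in untreated worms), and *gst-37* (WBGene00001785, chromosome V) at least 12.5-fold (8.46 and 7.39 CPM in treated and 0 and 0.192 CPM in untreated worms). *gst-31* (WBGene00001779, chromosome II) had 19.1 and 15.2 CPM in treated and 0.69 and 0.766 CPM in untreated worms. For all of these the lowest treated library was several times the highest untreated one. *gst-14*, *gst-12* and *gst-16*, next to each other on chromosome II, all rose; near-identical members of such clusters can share reads.

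The family was not induced as a whole. *gst-26* (WBGene00001774, chromosome II) fell to 17.3 and 8.9 CPM in treated worms, against 84.6 and 69.7 CPM in untreated worms (-2.56, SE 0.65, adjusted p = 0.0154), and *gst-10* (WBGene00001758, chromosome V) to 12.7 and 7.77 CPM, against 36.8 and 42.7 CPM (-1.95, SE 0.50, adjusted p = 0.00458). *gst-27*, *gst-42* and *gsto-1* also fell. *gst-6* (WBGene00001754, chromosome II) was not called (21.1 and 20.1 CPM in treated and 36.1 and 32.4 CPM in untreated worms, -0.73, adjusted p = 0.28). The number of higher members was 10 without treated replicate 1, 9 without treated replicate 3, 7 without untreated replicate 1 and 6 without untreated replicate 3, and that of lower members 0 without treated replicate 1, 0 without treated replicate 3, 1 without untreated replicate 1 and 0 without untreated replicate 3. *gcs-1* (WBGene00001527, chromosome II), the glutamate-cysteine ligase that limits glutathione synthesis, rose to 396 and 366 CPM in treated worms, against 112 and 122 CPM in untreated worms (1.70, SE 0.30, adjusted p = 0.000194), with no overlap and close replicates.

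Cytochrome P450s moved in both directions. Of 66 tested genes 9 rose and 10 fell, and the median log2 fold change was 0.49. *cyp-33B1* (WBGene00016092, chromosome V), with 66.3 and 176 CPM in treated and 0.46 and 0 CPM in untreated worms, was at least 192-fold higher. *cyp-34A9* (WBGene00015044, chromosome V) had 17.3 and 31.6 CPM in treated and 3.91 and 3.45 CPM in untreated worms (2.73, SE 0.51, adjusted p = 7.46e-06), and *cyp-37B1* (WBGene00009226, chromosome V) 45.9 and 60.2 CPM in treated and 5.29 and 4.22 CPM in untreated worms (3.48, SE 0.70, adjusted p = 0.000806). In the opposite direction, 5 members of the 35 subfamily, which is known for its induction by many foreign compounds, fell. *cyp-35A5* (WBGene00019473, chromosome V) had 1.02 and 0.947 CPM in treated and 22.5 and 22.8 CPM in untreated worms (-4.49, SE 0.62, adjusted p = 2.81e-12), and *cyp-35C1* (WBGene00007362, chromosome V) 14.7 and 12.3 CPM in treated and 119.6 and 156 CPM in untreated worms (-3.35, SE 0.48, adjusted p = 6.63e-08). The 13A subfamily moved both ways: *cyp-13A10* (20.3 and 15.3 CPM in treated and 1.38 and 1.15 CPM in untreated worms) and *cyp-13A8* rose, while *cyp-13A4* (1.35 and 0.189 CPM in treated and 11.7 and 9.58 CPM in untreated worms), *cyp-13A2*, *cyp-13A5*, *cyp-13A7* and *cyp-13A12* fell. The P450s called higher numbered 5 without treated replicate 1, 4 without treated replicate 3, 3 without untreated replicate 1 and 2 without untreated replicate 3, and those called lower 6 without treated replicate 1, 5 without treated replicate 3, 9 without untreated replicate 1 and 7 without untreated replicate 3.

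**Figure D3:**
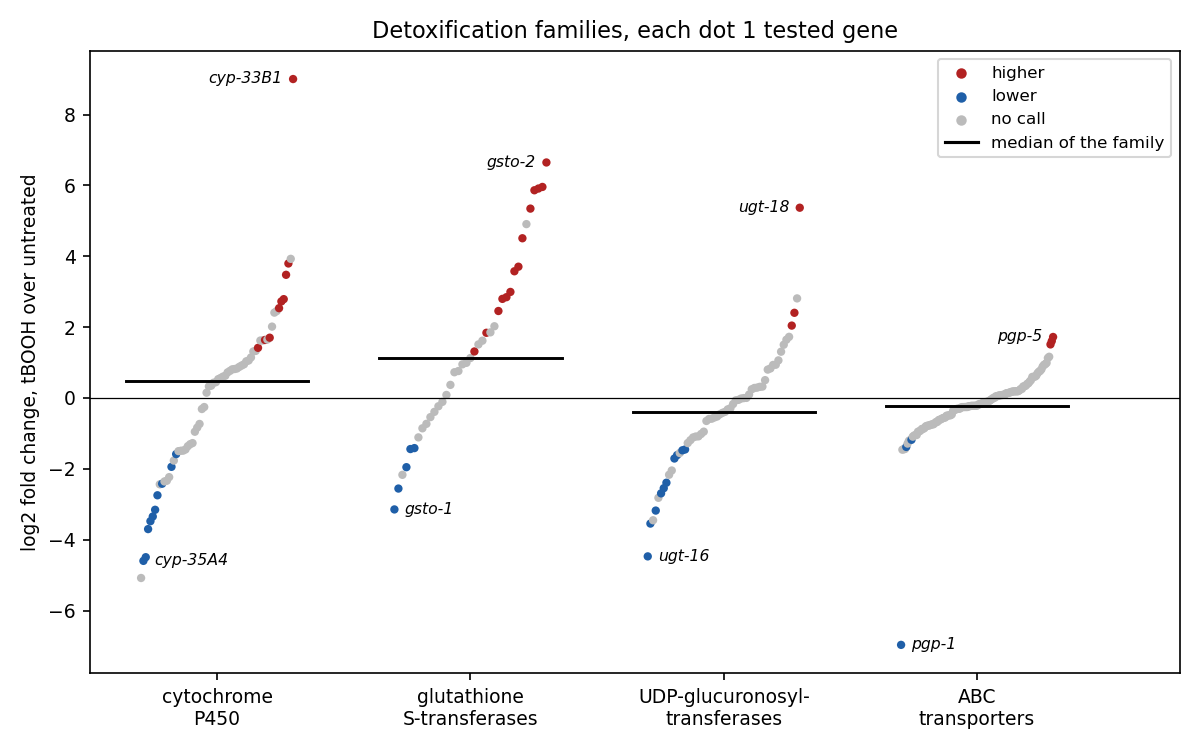
Each dot is 1 tested gene of a detoxification family, sorted by its log2 fold change of tBOOH-treated over untreated worms, in red where called higher, in blue where called lower and in grey without a call; black lines are family medians. Glutathione S-transferases have 14 red and 5 blue dots, UDP-glucuronosyltransferases 3 red and 10 blue, and *pgp-1* lies alone at the bottom among ABC transporters.

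UDP-glucuronosyltransferases, which attach sugars, were called in both directions. Of 58 tested genes 3 were higher and 10 lower, with a median of -0.41. The most induced and the most reduced members are neighbours on chromosome V. *ugt-18* (WBGene00013900, chromosome V) had 29.6 and 24.2 CPM in treated and 0.69 and 0.575 CPM in untreated worms and was at least 42.6-fold higher. *ugt-16* (WBGene00013901, chromosome V) had 2.54 and 3.41 CPM in treated and 56.8 and 75.9 CPM in untreated worms (-4.47, SE 0.64, adjusted p = 2.55e-07). For neither gene did the groups overlap. *ugt-21* (5.92 and 4.74 CPM in treated and 61.9 and 63.2 CPM in untreated worms) and *ugt-22* (38.7 and 32.6 CPM in treated and 161 and 214 CPM in untreated worms) fell as well. The lower count was 6 without treated replicate 1, 5 without treated replicate 3, 5 without untreated replicate 1 and 6 without untreated replicate 3; *ugt-16*, *ugt-18*, *ugt-21* and *ugt-22* passed in all 4 of these fits. Of 118 ABC transporter genes 3 rose and 3 fell (2.54% each), near the 2.2% and 3.14% of all genes. The smaller changes beside *pgp-1* were those of *haf-7*, *pgp-11* and *pgp-5*, with log2 fold changes of 1.51, 1.61 and 1.72, and of *haf-9* and *haf-4*, with -1.38 and -1.18. All 5 of these lost their calls in at least 3 of the 4 fits without 1 library.

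Of the classical antioxidants, 2 of 7 superoxide dismutase and catalase genes rose (28.6%, against 2.2% of all genes), *ctl-1* (14.2 and 11.9 CPM in treated and 3.91 and 3.83 CPM in untreated worms, adjusted p = 0.014) and *sod-4* (8.8 and 14.4 CPM in treated and 3.68 and 3.83 CPM in untreated worms, adjusted p = 0.0426), and both lost their calls in each fit without 1 library. Of 25 glutathione, thioredoxin and peroxiredoxin genes *gcs-1* rose and *msra-1*, a methionine sulfoxide reductase, fell. At 4% each, these shares are near the 2.2% higher and 3.14% lower of all genes. Of 9 small heat shock protein genes 2 rose and 1 fell. *hsp-16.2* had 2.54 and 3.03 CPM in treated and 0.23 and 0 CPM in untreated worms (adjusted p = 0.0407), *F08H9.3* had 2.37 and 1.33 CPM in treated worms and 0 counts in both untreated libraries (adjusted p = 0.0216), and *hsp-12.2* fell to 3.05 and 4.17 CPM in treated worms, against 21.4 and 11.3 CPM in untreated worms (adjusted p = 0.00407). The first pair lost their calls in each fit without 1 library and *hsp-12.2* in 3 of the 4. The 9 genes summed to 627 and 567 CPM in treated and 508 and 411 CPM in untreated worms. Of 23 cytosolic chaperone genes 1 was called, *aip-1* (WBGene00000097, chromosome V), an arsenite-inducible zinc finger protein, with 82.9 and 103 CPM in treated and 19.3 and 25.1 CPM in untreated worms (2.07, SE 0.43, adjusted p = 0.000578). None of 32 proteasome genes passed by exact test, quasi-likelihood or DESeq2, 0 of them had an unadjusted p under 0.05 in the exact test, and their median was -0.09. In mitochondria, 1 of 10 chaperone genes fell, the chaperonin *Y22D7AL.10* (36 and 34.3 CPM in treated and 122 and 104 CPM in untreated worms, adjusted p = 0.000481).

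Genes of autophagy, in which vesicles deliver cytoplasm to lysosomes, were called in the upward direction alone. Of 25 tested genes 9 were called higher and none lower; both treated libraries lay above both untreated ones for 23 of them, against 32.3% of all genes, and the median log2 fold change was 0.94. *sqst-1* (WBGene00011737, chromosome IV), the cargo receptor p62, had 354 and 349 CPM in treated and 142 and 107 CPM in untreated worms (1.50, SE 0.31, adjusted p = 0.00279). Its replicates lay close together, with a gap of more than 2-fold between the groups. The initiation factor *atg-13* (WBGene00017045, chromosome III; 110.0 and 101 CPM in treated and 32.4 and 33.3 CPM in untreated worms, adjusted p = 9.62e-05) and the endoplasmic reticulum protein *epg-4* (WBGene00018150, chromosome III; 43.7 and 38.1 CPM in treated and 8.28 and 11.3 CPM in untreated worms, adjusted p = 0.000166) had the lowest p-values of the group. *atg-2*, *atg-11*, *atg-18* and *epg-8* rose by 1.52, 1.13, 1.32 and 1.45 on the log2 scale. With changes of this size, the count of called members was 2 without treated replicate 1, 3 without treated replicate 3, 1 without untreated replicate 1 and 1 without untreated replicate 3, while the group's median stayed between 0.88 and 0.95 in these fits.

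Lipid genes moved in both directions. Of 36 lipase and lipid-binding protein genes 4 rose (11.1%, against 2.2% of all genes) and 3 fell (8.33%, against 3.14%). *lbp-8* was one of those that fell. The lysosomal lipases *lipl-2* (WBGene00009773, chromosome V; 31.8 and 48.3 CPM in treated and 9.43 and 5.56 CPM in untreated worms, 2.42, adjusted p = 2.85e-05) and *lipl-3* (WBGene00020016, chromosome V; 27.9 and 8.71 CPM in treated and 1.61 and 1.53 CPM in untreated worms, 3.53, adjusted p = 0.00171) rose, although the treated replicates of *lipl-3* differed more than 3-fold. Carnitine palmitoyltransferases carry fatty acids into mitochondria and moved in both directions: *cpt-3* (WBGene00021703, chromosome III) had 27.2 and 34.1 CPM in treated and 3.22 and 0.575 CPM in untreated worms, *cpt-1* 500.3 and 519 CPM in treated and 198 and 171 CPM in untreated worms, and *cpt-4* 12.2 and 8.71 CPM in treated and 44.9 and 56.9 CPM in untreated worms. Of 51 genes of fatty acid activation and beta-oxidation 6 rose (11.8%) and 3 fell (5.88%), with a median of -0.14. Of 17 desaturase and elongase genes none rose and 4 fell in the exact test, all of them elongases. *elo-2* (WBGene00001240, chromosome IV), which lengthens palmitate, had 28.9 and 18 CPM in treated and 98.7 and 104 CPM in untreated worms (-2.11, SE 0.40, adjusted p = 4.52e-05). *elo-5* and *elo-6* make branched-chain fatty acids; *elo-6* (WBGene00001244, chromosome IV) had 43.1 and 51.9 CPM in treated and 231 and 276 CPM in untreated worms, and *elo-5* 79.4 and 60.8 CPM in treated and 284 and 361 CPM in untreated worms. *acs-1*, an acyl-CoA synthetase of the same branched-chain pathway, fell as well (85.3 and 62.5 CPM in treated and 279.7 and 265 CPM in untreated worms, adjusted p = 0.000172). *cpt-3*, *cpt-4*, *elo-2* and *acs-1* kept their calls without any 1 library, while *cpt-1*, *elo-3* and *elo-5* lost theirs in each such fit. *icl-1*, the glyoxylate cycle enzyme, was not called (1985 and 2127 CPM in treated and 759.5 and 597 CPM in untreated worms, 1.60, adjusted p = 0.0971).

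Of the groups described, the collagens of cuticle furrows and body shape had the lowest median log2 fold change. Furrow and shape collagens, the *dpy*, *sqt*, *rol*, *bli* and *lon* genes whose mutation alters body form, had 14 of 22 members lower and none higher, with a median log2 fold change of -3.44. *dpy-2* (WBGene00001064, chromosome II) had 1.69 and 1.89 CPM in treated and 22.8 and 57.3 CPM in untreated worms (-4.47, SE 0.71, adjusted p = 2.66e-06), and *dpy-7* (WBGene00001069, chromosome X) 1.18 and 0.568 CPM in treated and 11.5 and 27 CPM in untreated worms (-4.41, SE 0.85, adjusted p = 0.000113). *sqt-3* (WBGene00005018, chromosome V), among the most abundant of them, had 38.7 and 125 CPM in treated and 715 and 1205 CPM in untreated worms, and *bli-1* (WBGene00000251, chromosome II), a collagen of the adult cuticle, 17.3 and 64.4 CPM in treated and 312 and 962 CPM in untreated worms. Each treated library lay below each untreated one, but in at least 1 group the replicates of each gene differed more than 2-fold. Of 119 other collagen genes with a *col* name 10 fell and none rose, with a median of -0.62. That median was -0.45 without treated replicate 1, -1.43 without treated replicate 3, 0.10 without untreated replicate 1 and -0.98 without untreated replicate 3, and the summed level of these genes overlapped between the groups (29897 and 29824 CPM in treated and 49500.2 and 27160 CPM in untreated worms).

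Genes of the apical matrix and of moulting were also called lower, in a smaller share than the furrow collagens. Of 99 tested genes 16 fell (16.2%, against 3.14% of all genes) and 1 rose, with a median log2 fold change of -0.70. Both treated libraries lay below both untreated ones for 42 of the 99, against 27.5% of all genes. They lay above them for 11, against 32.3% of all genes. *sym-1* (WBGene00006366, chromosome X), an apical leucine-rich repeat protein, had 10.5 and 8.34 CPM in treated and 128 and 369.8 CPM in untreated worms (-4.72, SE 0.62, adjusted p = 2e-07), and the lipocalin *lpr-3* (WBGene00012261, chromosome X) 3.89 and 11.7 CPM in treated and 93.9 and 301 CPM in untreated worms (-4.66, SE 0.71, adjusted p = 3.49e-05). *lpr-3*, *lpr-6*, *lpr-5* and *lpr-4* lie in a row on chromosome X and all 4 fell. The zona pellucida proteins *noah-1* (34.5 and 50.4 CPM in treated and 259 and 913 CPM in untreated worms) and *noah-2* (14.4 and 27.5 CPM in treated and 125 and 403 CPM in untreated worms) and the moulting gene *mlt-10* (10.3 and 32 CPM in treated and 166 and 293 CPM in untreated worms) fell to a like degree, with log2 fold changes of -3.79, -3.66 and -3.44. The single member that rose was the astacin protease *nas-9* (WBGene00003528, chromosome V), with 65.6 and 51.9 CPM in treated and 12 and 5.75 CPM in untreated worms (2.74, SE 0.47, adjusted p = 2.9e-06). Hedgehog-related and patched-related genes, many of them active in the epidermis at each moult, had 11 of 62 members lower and 3 higher, with a median of -1.12; *grd-1* (WBGene00001690, chromosome X) had 3.38 and 7.77 CPM in treated and 55 and 121 CPM in untreated worms (-3.98, SE 0.54, adjusted p = 1.37e-08), *wrt-2* 3.72 and 5.3 CPM in treated and 37.7 and 112 CPM in untreated worms, and *ptr-22*, in the other direction, 10.8 and 13.5 CPM in treated and 1.15 and 2.3 CPM in untreated worms. *lin-42*, the worm Period gene that times the moults, had 15.4 and 54.4 CPM in treated and 175 and 307 CPM in untreated worms (-2.79, adjusted p = 0.00291). The epidermal transcription factors fell less, *blmp-1* (-1.54, adjusted p = 0.0417) and *elt-3* (-1.31, adjusted p = 0.0271).

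**Figure D4:**
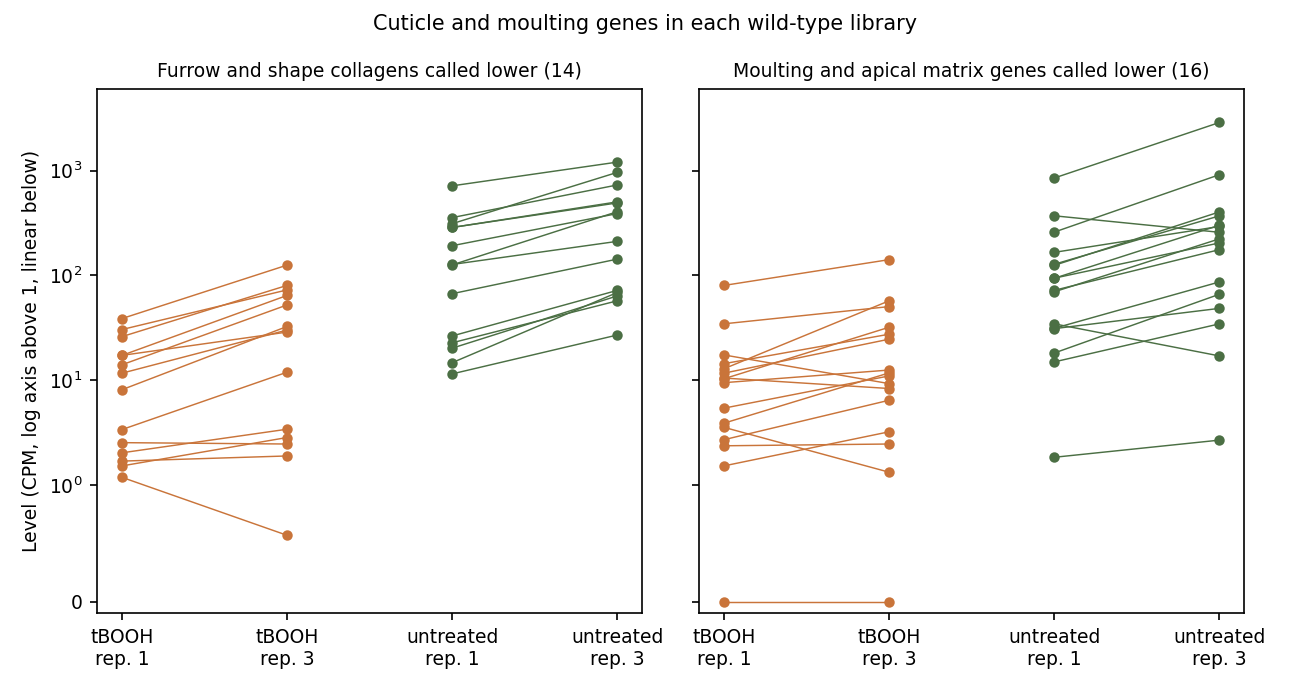
Each line joins the level of 1 gene in the 2 replicates of a group, in CPM on an axis that is logarithmic above 1, for the 14 furrow and shape collagens and the 16 moulting and apical matrix genes called lower; treated libraries are on the left and untreated ones on the right of each panel. Replicate 3 is the higher one for most of the collagens in both groups, and for each gene both treated points lie below both untreated points.

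These genes also differed between replicates. The furrow and shape collagens summed to 1527 and 5311 CPM in treated and 9452 and 11672 CPM in untreated worms, so that replicate 3 was 3.48 times replicate 1 with tBOOH and 1.23 times without. The moulting and apical matrix genes summed to 1149 and 1615 CPM in treated and 3679 and 7564 CPM in untreated worms, with ratios of replicate 3 to replicate 1 of 1.41 and 2.06. The vitellogenin sums ran the other way, with replicate 3 lower in both groups. The exact age of the worms in each library was not tested. Furrow collagens called lower numbered 2 without treated replicate 1, 11 without treated replicate 3, 14 without untreated replicate 1 and 6 without untreated replicate 3, and moulting genes 5 without treated replicate 1, 15 without treated replicate 3, 17 without untreated replicate 1 and 7 without untreated replicate 3, while the median of the furrow collagens was -2.83 without treated replicate 1, -4.04 without treated replicate 3, -3.83 without untreated replicate 1 and -2.58 without untreated replicate 3. Among the stage markers that are not part of the moult, none of 28 oocyte and eggshell genes and none of 28 major sperm protein genes passed by exact test, quasi-likelihood or DESeq2, and 0 of either had an unadjusted p under 0.05 in the exact test. The oocyte and eggshell genes nevertheless lay higher in both treated libraries for 24 of 28 members, against 32.3% of all genes, with a median of 0.64, and 7 of them passed with the dispersion of the 4 wild-type libraries alone. The sperm protein genes had a median of -0.05.

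Genes of the secretory pathway were lower in treated worms, in a group assembled after the values were seen. Of 23 tested genes 13 fell and none rose (3.14% of all genes fell), with a median of -1.25. *trap-2* (WBGene00020216, chromosome X), a subunit of the translocon-associated complex, had 62.4 and 70.3 CPM in treated and 239 and 247 CPM in untreated worms (-1.87, SE 0.30, adjusted p = 1.22e-05), and its partners *trap-1*, *trap-3* and *trap-4* fell too. *sec-61*, the channel through which new proteins enter the endoplasmic reticulum, had 504 and 392 CPM in treated and 1101 and 1108 CPM in untreated worms (-1.30, adjusted p = 0.035). *phy-2* (WBGene00004025, chromosome IV), a prolyl hydroxylase of collagens, had 16.8 and 31.8 CPM in treated and 120.3 and 220.3 CPM in untreated worms (-2.81, SE 0.51, adjusted p = 6.59e-05). Of 22 endoplasmic reticulum chaperone genes *pdi-2* and *pdi-6* fell and none rose, with a median of -0.37. The 80 cytosolic ribosomal protein genes had a median of -0.72 and 75 of them lay lower in both treated libraries, against 27.5% of all genes, but only *rpl-36* and *rps-14* were called. Their sum was 64416 and 73051 CPM in treated and 113517 and 108897 CPM in untreated worms. Secretory genes called lower numbered 2 without treated replicate 1, 6 without treated replicate 3, 6 without untreated replicate 1 and 4 without untreated replicate 3, and the call of *trap-2* passed in each of these fits.

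Methyl group and polyamine metabolism was lower as well, again in a group assembled after the values were seen. Of 22 tested genes 10 fell and none rose, with a median of -0.95. Beside *ahcy-1*, *sams-1* (WBGene00008205, chromosome X), the S-adenosylmethionine synthase, had 281 and 139 CPM in treated and 787 and 989 CPM in untreated worms (-2.08, SE 0.50, adjusted p = 0.00739), and *mel-32* (WBGene00003214, chromosome III), a serine hydroxymethyltransferase, 365 and 296 CPM in treated and 946 and 971 CPM in untreated worms (-1.53, SE 0.34, adjusted p = 0.00562). The polyamine enzymes fell further. *smd-1* (WBGene00004875, chromosome I), S-adenosylmethionine decarboxylase, had 43.1 and 50.8 CPM in treated and 235 and 216 CPM in untreated worms (-2.26, SE 0.30, adjusted p = 2.8e-08), and *spds-1* (WBGene00012909, chromosome II), spermidine synthase, 6.6 and 6.44 CPM in treated and 33.6 and 49.4 CPM in untreated worms (-2.67, SE 0.51, adjusted p = 2.42e-05). *smd-1* and *spds-1* kept their calls without any 1 library, *sams-1* in 2 of these 4 fits and *mel-32* and *ahcy-1* in none; the group's count was 3 without treated replicate 1, 2 without treated replicate 3, 5 without untreated replicate 1 and 2 without untreated replicate 3. In the breakdown of tyrosine, *tatn-1* (WBGene00009628, chromosome X), the aminotransferase at its start, had 97.1 and 107 CPM in treated and 571 and 475 CPM in untreated worms (-2.36, SE 0.32, adjusted p = 6.08e-07), and *hpd-1* and *fah-1*, further along, -1.47 and -1.18 on the log2 scale. Of the 17 genes of amino acid breakdown 7 fell and none rose, with 1 without treated replicate 1, 1 without treated replicate 3, 1 without untreated replicate 1 and 1 without untreated replicate 3.

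**Figure D5:**
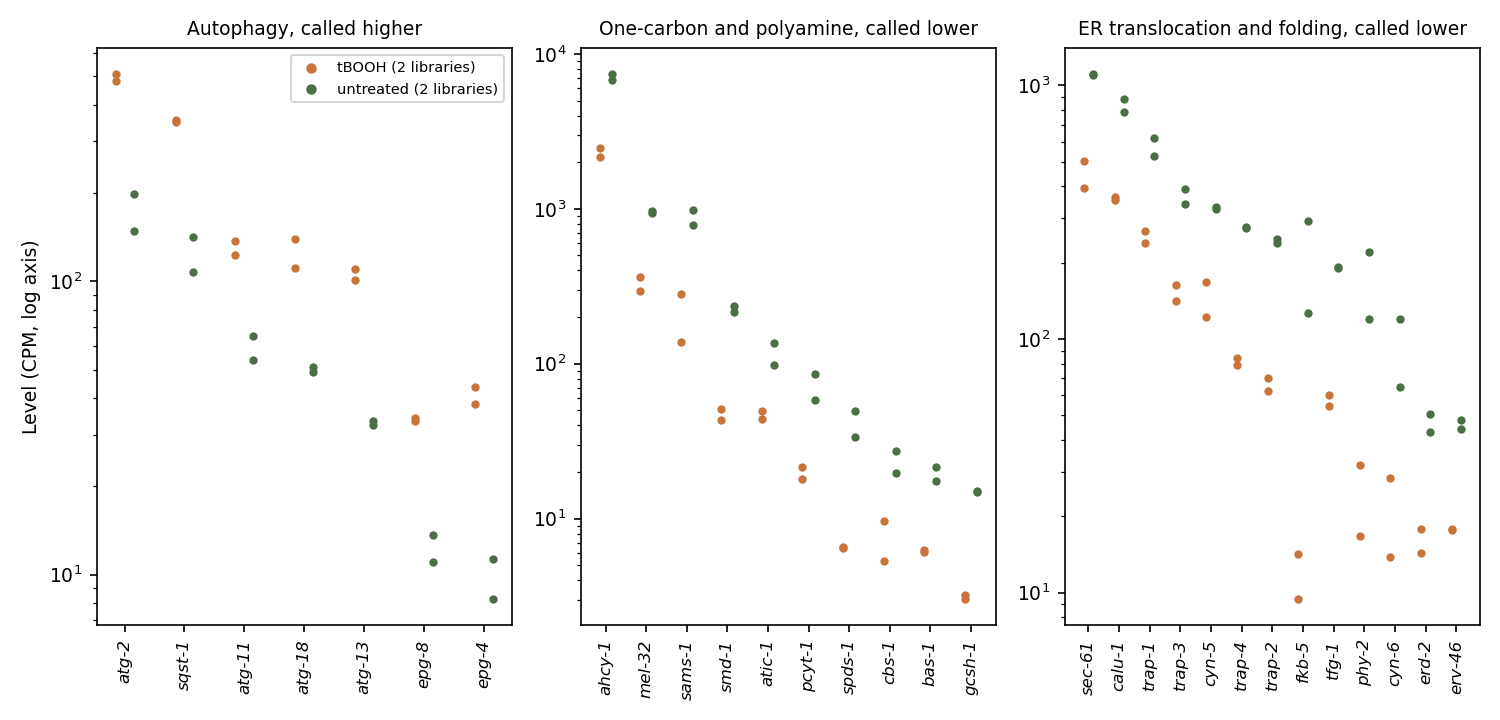
Levels in CPM on a log axis of 7 of the 9 autophagy genes called higher (left), the 10 one-carbon and polyamine genes called lower (middle) and the 13 genes of endoplasmic reticulum translocation and folding called lower (right), with the 2 tBOOH-treated libraries on the left and the 2 untreated libraries on the right of each gene. The points of the groups do not overlap for any of these genes.

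Intestinal and immune genes moved in both directions. Of 30 protease genes of the gut 4 fell (13.3%, against 3.14% of all genes) and 1, *cpr-1*, rose (3.33%, against 2.2%). The aspartyl protease *asp-10* had 35 and 31.4 CPM in treated and 196 and 218 CPM in untreated worms (-2.64, adjusted p = 0.000125). Of 120 tested C-type lectins, secreted or membrane proteins many of which respond to pathogens, 6 rose (5%) and 14 fell (11.7%). *clec-74* (WBGene00021585, chromosome IV) had 20.1 and 9.47 CPM in treated worms and 0 counts in both untreated libraries, at least 23.4-fold higher, and *clec-41* (WBGene00007153, chromosome V) had 744 and 541 CPM in treated and 208 and 203 CPM in untreated worms (1.64, SE 0.34, adjusted p = 0.00175). *clec-57* (WBGene00008594, chromosome V) had 11.3 and 5.87 CPM in treated and 57.3 and 63.8 CPM in untreated worms (-2.81, SE 0.50, adjusted p = 1.14e-05). Of 27 lysozyme and saposin-like genes 2 rose (7.41%) and 3 fell (11.1%). *lys-7* (WBGene00003096, chromosome V) rose to 61.8 and 75.6 CPM in treated worms, against 16.6 and 14 CPM in untreated worms. *ilys-5* (WBGene00017691, chromosome X) fell to 124 and 127 CPM in treated worms, against 618 and 505 CPM in untreated worms. Both lay clear of the other group, with log2 fold changes of 2.17 (SE 0.40, adjusted p = 5.06e-05) and -2.16 (SE 0.30, adjusted p = 1.47e-06). Of 45 thaumatin-like, *irg* and *dod* genes 4 rose (8.89%) and 2 fell (4.44%). The thaumatin-like genes *thn-1* and *thn-2*, adjacent on chromosome IV, both rose in the exact test. *thn-2* had 92.9 and 64.4 CPM in treated and 9.43 and 3.64 CPM in untreated worms. Neither passed the quasi-likelihood test (adjusted p = 0.0562 for *thn-1* and 0.0611 for *thn-2*). Muscle structural genes lay lower in both treated libraries for 27 of 27 members, against 27.5% of all genes, with a median of -0.78. The exact test called 3 of them lower (11.1%), the troponin gene *tnt-4*, *dim-1* and *act-5*, of which the last is an intestinal actin. The quasi-likelihood test did not call *tnt-4* (adjusted p = 0.0676).

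Calls among nuclear hormone receptors were below the background. Of 195 tested nuclear hormone receptor genes 3 rose (*nhr-19*, *nhr-21* and *nhr-180*, with log2 fold changes of 1.75, 1.85 and 1.69) and 1 fell, or 1.54% and 0.513%, against 2.2% and 3.14% of all genes. Both treated libraries nevertheless lay above both untreated ones for 97 of the 195 receptors, against 32.3% of all genes, with a median of 0.45. The one that fell, *nhr-114* (WBGene00003704, chromosome V), a receptor tied to diet and vitamin B12, had 38.7 and 32.6 CPM in treated and 139 and 171 CPM in untreated worms (-2.12, SE 0.39, adjusted p = 2.2e-05), and it passed without any 1 library, whereas *nhr-21* and *nhr-180* passed in no such fit and *nhr-19* in 2 of 4. *nhr-49* (WBGene00003639, chromosome I) itself had 109.6 and 108 CPM in treated and 68.5 and 66.1 CPM in untreated worms, which did not overlap but did not pass (0.69, SE 0.36, adjusted p = 0.347). The Mediator subunit *mdt-15* (WBGene00007016, chromosome III) had 214 and 199 CPM in treated and 184 and 186 CPM in untreated worms (0.15, SE 0.34, adjusted p = 0.926). Of 42 stress transcription factors and their partners 1 rose (2.38%, against 2.2% of all genes) and 3 fell (7.14%, against 3.14%). The higher one was *wdr-23*, which encodes the inhibitor of SKN-1 (195 and 195 CPM in treated and 92.9 and 79.5 CPM in untreated worms, adjusted p = 0.0278). The lower ones were *zip-3*, *elt-3* and *blmp-1*. Both treated libraries lay above both untreated ones for 23 of the 42, against 32.3% of all genes. The calls of *wdr-23*, *zip-3* and *elt-3* were lost in each fit without 1 library.

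Induced and reduced genes were spread unevenly over the chromosomes. Among the 12528 tested genes with a position in RefSeq (WBcel235), 20.1% lie on chromosome V and 14.01% on chromosome X. Of the 280 higher genes with a position, 38.2% lie on V and 10.4% on X, and of the 398 lower genes 21.1% lie on V and 27.9% on X. Neighbours were called together more often than the whole set of tested genes: 30 of the 280 higher genes (10.7%) had a tested neighbour that also rose, where 4.37% of all tested genes lay next to a higher gene, and 48 of the 398 lower genes (12.1%) had a neighbour that also fell, where 6.19% of all tested genes lay next to a lower gene. These shares are descriptions without a test. Runs of at least 3 higher neighbours were *gst-14*, *gst-12* and *gst-16* on II, and on V *F14F9.4*, *F14F9.3* and *F14F9.2*, *Y58A7A.3* to *Y58A7A.5*, and *ZC443.3*, *ZC443.4* and *ugt-18*. In the F14F9 run, *F14F9.4* had 101 and 122 CPM in treated and 17.7 and 12.8 CPM in untreated worms and *F14F9.2* 17.4 and 33.3 CPM in treated and 0.23 and 0.383 CPM in untreated worms. Exons of 155 called genes overlap those of another protein-coding gene, 133 of them with one on the opposite strand, and whether counting used strand is not given in the sources used here, so reads of such partners cannot be told apart. Among the called genes named above, *acs-1*, *atg-13*, *bli-1*, *cyp-37B1*, *dos-3*, *hsp-12.2*, *elo-3*, *elo-5*, *epg-8*, *gsto-1*, *haf-4*, *msra-1*, *nhr-19*, *nhr-180*, *sod-4*, *sym-1*, *ugt-22*, *wrt-2* and *zip-3* have such a partner on the opposite strand, and *gst-4*, *lipl-3*, *mlt-10* and *smd-1* on the same strand.

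Most of the wild-type changes had the same direction in *nhr-49* worms. Of the 316 genes higher in wild-type, 304 had a positive and, of the 450 lower genes, 429 a negative log2 fold change in the mutant. Over all genes tested the mutant's median log2 fold change was 0.04, and the share with the same direction in both genotypes was not counted. In *nhr-49* worms the exact test called 390 genes higher (percent called 2.72) and 274 lower (percent called 1.91). They included 172 of the wild-type higher genes, 54.4% of that list and 44.1% of the mutant's, and 154 of the lower genes, 34.2% of the wild-type list and 56.2% of the mutant's. Over the wild-type lists the mutant's median log2 fold change was 1.85 for higher and -1.26 for lower genes; the lists were chosen on the wild-type values, which sets the wild-type medians. The furrow collagens had a median of -3.44 in wild-type and -0.64 in *nhr-49* worms, a difference that was not tested over the list. In the mutant their sums overlapped between the groups, with 4192 and 8084 CPM in treated and 9857 and 4995 CPM in untreated worms. The mutant's vitellogenin sums were 67482 and 3560 CPM in treated and 60999 and 833 CPM in untreated replicates 1 and 3. The test of the difference itself, the genotype-by-treatment interaction by quasi-likelihood, called no gene (lowest adjusted p = 0.185, 523 genes at an unadjusted p under 0.05), and DESeq2 called 16, among them *pgp-1*, *cyp-33B1*, *cyp-37B1*, *cyp-13A5* and *tatn-1*. *fmo-2* was at 0 counts in all 4 mutant libraries, which leaves no mutant fold change to compare with that of wild-type. With tBOOH, *fmo-2* was thus under the floor of 0.701 and 0.624 CPM in the mutant, against 272 and 138 CPM in wild-type. Its unadjusted quasi-likelihood p for the difference was 0.9996, so the missing call says nothing about this gene. The same holds for *clec-74* (0.9996), which had 0 counts in the untreated libraries of both genotypes. *pgp-1* fell in the mutant too, to 88 and 52.9 CPM with tBOOH, against 1245 and 1145 CPM without it. The log2 fold change of *pgp-1* was -4.08 in *nhr-49* worms, against -6.97 in wild-type.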

How the data were processed

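The authors aligned single-end reads to ce10 with STAR, per the paper's methods and the labels, and deposited raw read counts per gene symbol for 8 libraries, which are the values used here. The counting program and annotation are not given in the sources used here. Their normalized table of the same counts was not used. Groups follow the genotype and treatment labels.

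The analysis ran in R 4.3.3 on edgeR 4.0.16, with DESeq2 1.42.0 as an alternative. Libraries were scaled by TMM over all genes to CPM (counts per scaled library size), and genes above 1 CPM in 2 or more libraries entered the tests. The wild-type groups were compared by the exact test of edgeR with dispersions per gene estimated over the 8 libraries. A Benjamini-Hochberg adjusted p under 0.05 made a call, with a log2 fold change beyond 2 for the 4-fold lists. Standard errors come from DESeq2. Fold bounds set groups at or under 3 counts to that floor. The scripts were tested on simulated data. Of the genes kept, 12682 had a WormBase identifier in the annotation of another build (WBcel235), so no coordinates are given, and the others are given without an identifier.

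Members and gene lists were chosen with earlier results of these data known, and 3 lists after the values were seen; no list was tested. The naming rule took, in each direction, the 10 called genes of largest fold with no overlap and 20 counts or more in both libraries of the higher side, the 5 with the largest difference in CPM, up to 4 members of each list with the lowest p, and genes the study names. Some genes of that rule are left out for space or are not reported here, and further genes were chosen after their values were seen. Alternatives were the quasi-likelihood test, DESeq2, RLE factors, no filter, a filter at 10 counts in 2 libraries, dispersions from 4 libraries, a replicate block, another prior count (2) and each library left out in turn. Promoter sequences were not analysed here.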

Additional observations from a re-analysis of the deposited data

Results flagged for a closer look

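*gst-6*, a glutathione S-transferase, had both treated libraries below both untreated ones in wild-type worms and above them in *nhr-49* worms. Its log2 fold change was -0.73 in wild-type worms, and that of *nhr-49* worms was 0.28, with 63.5 and 59.9 CPM in treated and 44.03 and 57.7 CPM in untreated mutants. Neither change was called, and the test of the difference gave an adjusted p of 1.0 (edgeR quasi-likelihood, Benjamini-Hochberg) and an unadjusted p of 0.028.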

How the results depend on the processing

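Fewer libraries or another estimate of the spread changed the number of calls. The quasi-likelihood test called 103 genes higher and 130 lower, of which 82 and 81 changed more than 4-fold, and dispersions from the 4 wild-type libraries gave 1136 higher and 1181 lower. Leaving out 1 library gave 54 to 126 higher and 80 to 247 lower genes, and more than 4-fold 53 to 106 higher and 76 to 221 lower; the exact test then assumes that the lone library of a group varies like the others. Under DESeq2, RLE factors, no filter, the filter at 10 counts and a prior count of 2, higher genes numbered 260 to 339 and lower genes 377 to 568. The share of higher genes among the calls was 41.3% in the main test, 38.1% with RLE factors, 34.03% with DESeq2 and 49.03% with dispersions from the 4 wild-type libraries. Without 1 library it was 26.5% to 60.98%, and the highest value, without treated replicate 1, turned the balance to more higher than lower genes. DESeq2 called 16 genes for the difference between the responses of wild-type and *nhr-49* worms, where the quasi-likelihood test called 0, also with the replicate block and with the filter at 10 counts.

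The labels do not say that replicate numbers pair samples, and across genes the deviations of same-numbered libraries correlated with r = 0.05 between treated and untreated wild-type, 0.34 between treated and untreated *nhr-49*, 0.35 between the treated libraries of the 2 genotypes and 0.31 between the untreated ones. A replicate block in the quasi-likelihood test gave 215 higher and 409 lower genes, of which 203 and 346 were calls of the exact test, and 118 higher and 220 lower beyond 4-fold. Of 147 genes followed through all settings, 142 were called and 50 of these kept the call under every alternative that tested them.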
